A study of Mus musculus with 8 samples.

Results

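The genes described are 10 mouse genes of adenosine signalling, taken by symbol from the count files out of 38926 symbols per library. They are the 4 adenosine receptor genes (Adora1, Adora2a, Adora2b and Adora3), 3 ectonucleotidase genes (Nt5e, Entpd1 and Entpd2), 2 genes of adenosine-consuming enzymes (Ada and Adk) and the nucleoside transporter gene Slc29a1. All 10 passed the filter on low counts. The group was put together because Adora2b had already been called lower in NeMO in these same libraries. The NeMO and Sham values of the 10 genes are therefore a description and give no independent evidence of a direction.

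Bladder tissue was profiled by polyA RNA sequencing in 4 libraries labelled NeMO and 4 labelled Sham. NeMO is a surgical partial obstruction of the bladder outlet in mice that leaves the nerves intact, and Sham animals had the operation without it. Strain, sex, age and the time after surgery are not stated in the labels. The labels do not tie libraries to separate animals, so the errors below measure the spread between these libraries.

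Library totals ran from 27212499 to 36375313 counts, so 1 CPM, which is 1 count in every 1000000, stood for 27.2 to 36.4 reads before TMM scaling, which all CPM below carry. A batch mark places 2 NeMO and 3 Sham libraries in batch 1, and 2 NeMO libraries and 1 Sham library (replicate 4) in batch 2. The labelled tissue was borne out by its markers: the 8 urothelial markers summed to 4490 to 7212 CPM and the 8 smooth muscle markers to 28592 to 52631 CPM over the 8 libraries. Fat markers summed to 336 to 2501 CPM. Skeletal muscle markers summed to 711 to 1256 CPM, most of it from Acta1 (580 to 1062 CPM). Over the libraries Ckm ran from 59.2 to 201 CPM, Tnnt3 from 7.34 to 43.8 CPM and Myh2 from 0.718 to 28.1 CPM. Myh4 and Mylpf were at most 2.70 and 2.66 CPM in any library. In whole tissue, fewer cells of a type and less RNA per cell cannot be told apart.

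Adenosine outside cells is made in steps. The enzymes encoded by Entpd1 and Entpd2 split phosphates from extracellular ATP and ADP, and the ecto-5′-nucleotidase encoded by Nt5e turns the resulting AMP into adenosine. Adora2a and Adora2b encode receptors that raise cyclic AMP through the stimulatory G protein, whereas the receptors of Adora1 and Adora3 couple to inhibitory G proteins. The Adora2b receptor needs more adenosine than the others to respond. The signal ends when the equilibrative transporter of Slc29a1 carries adenosine into cells, where adenosine kinase (Adk) makes AMP from it or adenosine deaminase (Ada) makes inosine. The bladder lining releases ATP when stretched.

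The promoters of 3 genes whose 4 NeMO values all lay below the 4 Sham values, and which have a single start in the RefSeq table, are shown to set their base composition and motifs beside the counts. Each is the 250 bases before the start on GRCm38.p6, the assembly that mm10 names, read 5′ to 3′ along the gene. Adora2b lies at chr11:62248734-62248983 (plus strand), Ada at chr2:163750240-163750489 (minus strand) and Entpd2 at chr2:25395624-25395873 (plus strand). Capitals mark the Sp1 box GGGCGG and the hypoxia response core ACGTG on either strand.
Adora2b: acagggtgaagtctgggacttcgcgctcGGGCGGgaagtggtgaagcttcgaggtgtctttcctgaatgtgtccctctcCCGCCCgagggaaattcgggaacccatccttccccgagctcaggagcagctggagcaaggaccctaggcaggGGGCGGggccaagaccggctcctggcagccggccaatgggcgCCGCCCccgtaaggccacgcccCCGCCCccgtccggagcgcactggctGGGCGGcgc
Ada: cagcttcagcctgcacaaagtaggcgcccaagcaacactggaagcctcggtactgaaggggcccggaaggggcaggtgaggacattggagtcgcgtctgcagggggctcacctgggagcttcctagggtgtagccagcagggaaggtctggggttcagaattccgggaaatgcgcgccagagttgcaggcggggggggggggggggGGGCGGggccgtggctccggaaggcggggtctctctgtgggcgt
Entpd2: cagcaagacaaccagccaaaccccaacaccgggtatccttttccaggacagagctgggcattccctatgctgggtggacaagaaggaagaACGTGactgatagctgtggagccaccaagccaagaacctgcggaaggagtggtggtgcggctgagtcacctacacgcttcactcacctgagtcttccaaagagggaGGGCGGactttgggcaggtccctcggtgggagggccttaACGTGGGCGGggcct
The Adora2b promoter held 6 Sp1 boxes, the Ada promoter 1 and the Entpd2 promoter 2. Of the 32851 promoters of the table, 32.7% held at least 1 such box in the same window. The hypoxia core stood at 2 places in Entpd2 (the second shares 1 base with an Sp1 box) and in neither of the other two, against 16.6% of all promoters. GC content was 69.6% in Adora2b, 67.2% in Ada and 59.2% in Entpd2. The cyclic AMP response element TGACGTCA was in none of the 19 promoters listed for 9 of the 10 genes (1.55% of all promoters), and the shorter core TGACG, which the full element contains, was in 4 of the 19 (17.8% of all). The AP-1 site TGANTCA was in 3 of the 19 (6.75% of all). A match of letters describes the sequence and does not show that a factor binds there.

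Adora2b was the member with the largest difference between the groups. It spans positions 62248984 to 62266453 of chromosome 11 (plus strand, protein-coding, 2 exon blocks in GENCODE). Its level was 18.2, 22.5, 17.8 and 21.5 CPM in NeMO replicates 1 to 4. In Sham replicates 1 to 4 it was 28.6, 31.8, 38.5 and 35.7 CPM. Every NeMO library lay below every Sham library. The means were 20.01 ± 2.35 and 33.7 ± 4.34 CPM (SD, n = 4 each), a log2 fold change of −0.81 (SE 0.11, edgeR). These values, with an edgeR adjusted p of 0.0458, are what chose the group: Adora2b had rank 10 by p among the 12 genes called. Of the 10 members, 1 was called, against 0.0733% of the 16370 genes tested (0.0305% called lower), and nothing is read from that count because the same contrast chose the group. Within batches the log2 fold change was −0.87 (batch 1) and −0.69 (batch 2). The call itself ended in 11 of 18 alternative settings, among them the fit without the batch term (edgeR adjusted p = 0.0680) and the correction for transcript length and GC content (0.0748). Without any single library the log2 fold change stayed between −0.87 and −0.73. The call was lost without NeMO replicate 3 or 4 or without Sham replicate 1, 2 or 4 (edgeR adjusted p from 0.0539 to 0.231). Sham replicate 4 is the only Sham library of batch 2, so without it the group difference rested on batch 1. That fit (−0.87, edgeR adjusted p = 0.231) and batch 1 alone (−0.87) are therefore not separate alternatives among the 18.

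**Figure D1:**
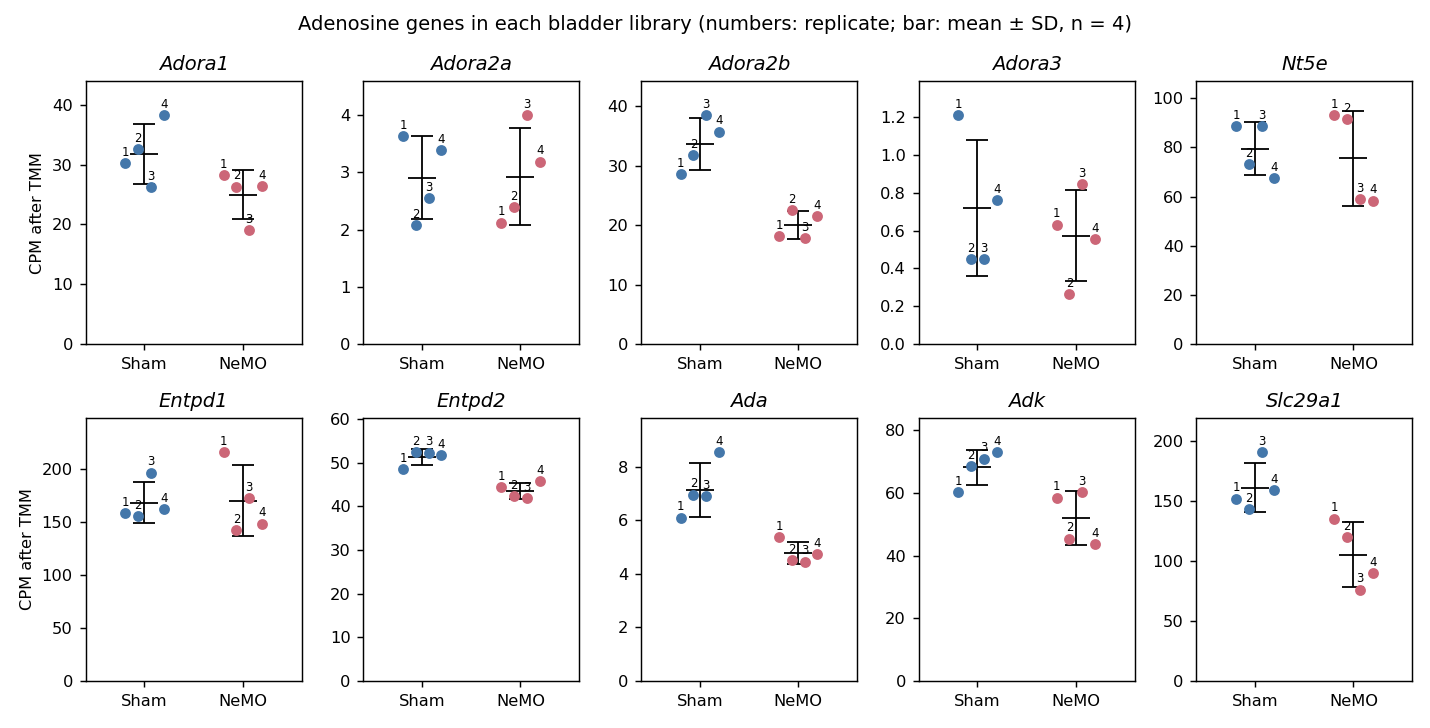
CPM after TMM scaling (vertical axes from 0) of each of the 10 genes in the 4 Sham and 4 NeMO libraries, with points numbered by replicate and bars for mean ± SD. The NeMO points of Adora2b, Entpd2, Ada, Adk and Slc29a1 all lie below the Sham points, and the NeMO points of Nt5e lie in 2 pairs on either side of them.

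The other receptor with a sizeable level was Adora1 (chromosome 1, 134199223 to 134235431, minus strand). It measured 28.2, 26.3, 18.99 and 26.4 CPM in NeMO replicates 1 to 4, and 30.3, 32.6, 26.2 and 38.2 CPM in the Sham replicates in the same order. The groups overlapped, since Sham replicate 3 lay below 3 of the NeMO libraries. The log2 fold change was −0.40 (SE 0.13) and was not called (edgeR adjusted p = 0.169). Without NeMO replicate 1 it was −0.59 and passed (edgeR adjusted p = 0.0299), in a fit that called 652 genes in all, against 12 with all libraries. Adora1 passed in only 1 of the 8 fits without 1 library, over which its log2 fold change ran from −0.59 to −0.29. Exons of Adora1 share 1162 bases with Mybph on the opposite strand, the library kit marked strand, and no source used here states whether the counting used it.

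The Adora2a and Adora3 transcripts were scarce and showed no direction. Adora2a (chromosome 10, 75316877 to 75334784, plus strand) measured 2.12, 2.38, 3.99 and 3.18 CPM in NeMO and 3.62, 2.08, 2.54 and 3.38 CPM in Sham, from 60 to 137 reads. Its log2 fold change was −0.003 (SE 0.29). Adora3 (chromosome 3, 105870858 to 105908926, plus strand) rested on 8 to 41 reads per library. It measured 0.631, 0.265, 0.845 and 0.554 CPM in NeMO and 1.21, 0.450, 0.449 and 0.760 CPM in Sham, with a log2 fold change of −0.26 (SE 0.47). The groups overlapped for both genes. With SEs of this size, a difference as large as that of Adora2b could be missed for either gene. Adora3 shares 779 exonic bases with Tmigd3 on the same strand, so some of its reads could belong to that gene.

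Per kilobase of the longest transcript, which allows genes to be compared, Adora2b made up most of the receptor transcripts in every library. Its share of the summed receptor level was 66.0, 69.5, 76.4 and 67.5% in Sham replicates 1 to 4 and 59.3, 65.9, 62.8 and 63.2% in NeMO replicates 1 to 4. The highest NeMO share lay just under the lowest Sham share. Adora1 took 19.3 to 26.8% in Sham and 24.9 to 34.1% in NeMO, Adora2a 3.23 to 5.94% and 4.91 to 9.996%, and Adora3 at most 2.32% in any library. The summed receptor level was 23.5 to 28.7 CPM per kilobase in Sham and 15.4 to 18.5 in NeMO. The ratio of Adora2b to Adora1 was 2.52 to 3.95 in Sham and 1.74 to 2.53 in NeMO, and the ranges overlapped slightly. These shares and sums follow from the Adora2b values that chose the group.

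**Figure D2:**
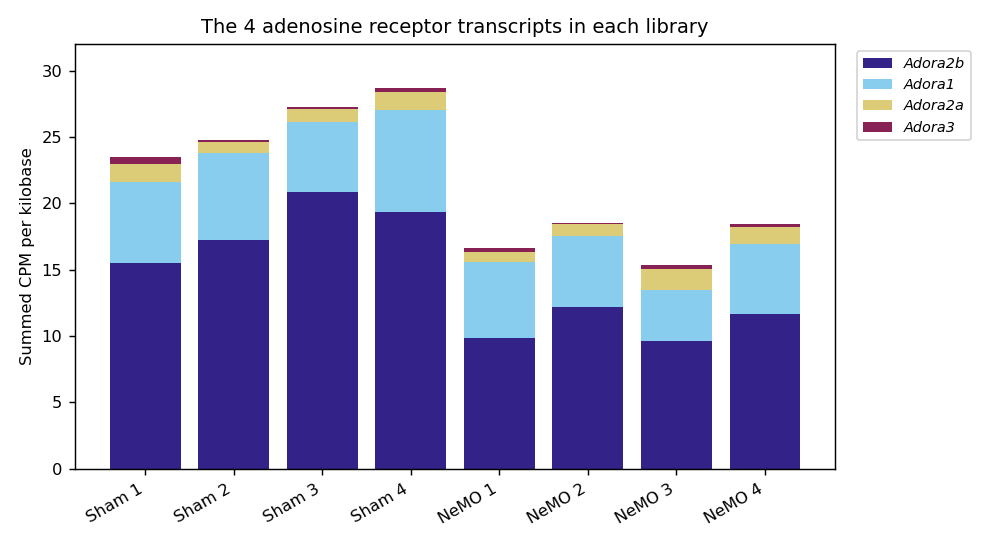
Stacked level of the 4 receptor genes in each library, in CPM per kilobase of the longest transcript (linear axis from 0). Adora2b is the largest segment in all 8 libraries, and the summed height is 15.4 to 18.5 in NeMO and 23.5 to 28.7 in Sham.

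Among the enzymes that make adenosine, Nt5e did not differ in mean but was uneven within NeMO. Nt5e (chromosome 9, 88327197 to 88372092, plus strand) measured 93.0, 91.6, 58.9 and 58.4 CPM in NeMO replicates 1 to 4. In Sham replicates 1 to 4 it measured 88.6, 73.1, 88.5 and 67.5 CPM. NeMO replicates 1 and 2 lay above all Sham libraries, and NeMO replicates 3 and 4 lay below them. The means were 75.5 ± 19.4 and 79.4 ± 10.8 CPM, with a log2 fold change of −0.04 (SE 0.19). The pairs do not follow the batch mark, since each batch holds 1 NeMO library of either kind. The summed level of 7 fibroblast markers was 8114 and 7212 CPM in NeMO replicates 1 and 2, 16773 and 10873 CPM in NeMO replicates 3 and 4, and 7981 to 10594 CPM in Sham. Col1a1 and Col1a2 had the highest NeMO means of these markers (maxima 5092 and 7287 CPM). Of the 7 fibroblast markers, 4 had lower means in NeMO than in Sham, while 2 had a fitted value below 0 and 5 above. Fibroblasts were not alone in this split of the NeMO libraries. Endothelial sums were 376 and 310 CPM in NeMO replicates 1 and 2, and 524 and 444 CPM in NeMO replicates 3 and 4. In the same order, macrophage sums were 363, 185, 418 and 369 CPM, and lymphocyte sums 6.08, 5.46, 15.8 and 9.08 CPM. Sums of the remaining marker lists did not split in this way. The part of these sums in the Nt5e values was not tested.

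Entpd1, whose product takes ATP and ADP down to AMP, had the highest CPM of the 10 genes and no direction. Entpd1 (chromosome 19, 40612366 to 40741602, plus strand) measured 216, 142, 173 and 149 CPM in NeMO and 159, 156, 197 and 162 CPM in Sham. NeMO replicate 1 was the highest library and NeMO replicates 2 and 4 were the lowest. The log2 fold change was 0.07 (SE 0.12), 0.19 in batch 1 and −0.15 in batch 2. Entpd1 was the only member with a fitted value above 0, although Adora2a moved just above 0 with DESeq2's size factors (0.0017) and with library totals (0.015).

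Entpd2, whose product mainly converts ATP to ADP, showed a small difference with little spread. Entpd2 (chromosome 2, 25395874 to 25401321, plus strand) measured 44.4, 42.3, 41.8 and 45.7 CPM in NeMO. Sham replicates 1 to 4 measured 48.5, 52.4, 52.3 and 51.7 CPM. The groups did not overlap. The coefficient of variation was 4.18% in NeMO and 3.60% in Sham, the smallest of the 10 genes in either group. The log2 fold change was −0.24 (SE 0.07) and was not called (edgeR adjusted p = 0.135), and after the length and GC correction it was −0.10. Entpd2 and Npdc1, which was also counted, share 612 exonic bases on the same strand. How reads from those bases were assigned is not stated. The Entpd2 count could hold reads of that neighbour or lack some of its own.

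The NeMO values of Slc29a1, Ada and Adk lay below all Sham values, and none of these 3 genes was called by edgeR. Slc29a1 (chromosome 17, 45585200 to 45599606, minus strand) measured 135, 120, 76.0 and 89.7 CPM in NeMO replicates 1 to 4. The Sham replicates 1 to 4 measured 152, 143, 191 and 159 CPM. The groups did not overlap, and NeMO replicates 3 and 4 were again the lower pair. The means were 105 ± 27.03 and 161 ± 20.7 CPM, a log2 fold change of −0.61 (SE 0.19, edgeR adjusted p = 0.172). Without NeMO replicate 1 it was −0.85 and passed (edgeR adjusted p = 0.0436). That fit called 652 genes in all, against 12 with all libraries. It was the only 1 of the 8 fits without 1 library in which Slc29a1 passed. Over those 8 fits the log2 fold change ran from −0.85 to −0.42, and after the length and GC correction it was −0.49. Exons of Slc29a1 share 275 bases with the antisense gene Gm17080.

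Ada (chromosome 2, 163726584 to 163750239, minus strand) measured 5.36, 4.504, 4.46 and 4.73 CPM in NeMO, and 6.10, 6.96, 6.91 and 8.55 CPM in Sham. The groups did not overlap, and the difference rested on 136 to 231 reads per library. The log2 fold change was −0.60 (SE 0.16, edgeR adjusted p = 0.125). Within batches it was −0.44 (batch 1) and −0.88 (batch 2).

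Adk (chromosome 14, 21052574 to 21448569, plus strand) measured 58.4, 45.4, 60.2 and 43.5 CPM in NeMO and 60.3, 68.5, 70.9 and 73.0 CPM in Sham. The highest NeMO value, in replicate 3, lay just below the lowest Sham value, in replicate 1. The log2 fold change was −0.37 (SE 0.11, edgeR adjusted p = 0.147). It was −0.17 in batch 1 and −0.71 in batch 2, where NeMO replicates 2 and 4 and Sham replicate 4 were compared. A test of that difference between batches gave −0.55 on the log2 scale, batch 2 minus batch 1 (unadjusted p = 0.00812, edgeR adjusted p = 0.930 over all genes). Of the 10 members, 1 had an unadjusted p under 0.05 in this test, against 4.63% of all genes, and none was called (0% of all genes).

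Taken as a list, 9 of the 10 members had a fitted log2 fold change below 0, against 51.7% of all genes tested, and 8 of 10 with DESeq2's size factors or library totals, where Adora2a changed side. Their median was −0.31, and the median of all genes was −0.01. The NeMO and Sham libraries did not overlap for 5 members (Adora2b, Entpd2, Ada, Adk and Slc29a1), all lower in NeMO, against 8.19% of all genes, and 3.81% lower in NeMO. At an unadjusted p under 0.05 edgeR had 6 members below 0 and 0 above, against 18.5% of all genes, and 9.14% of all genes lower in NeMO. DESeq2's Wald test called 3 (Adora2b, Ada and Slc29a1, adjusted p = 2.61e-07, 0.0235 and 0.0310), against 6.32% of the 15086 genes given an adjusted p. Nothing is read from these counts, since the contrast that chose the group is the one counted. Of the 10 members, 6 had the same sign in both batches: Adora1, Adora2b, Entpd2, Ada, Adk and Slc29a1.

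**Figure D3:**
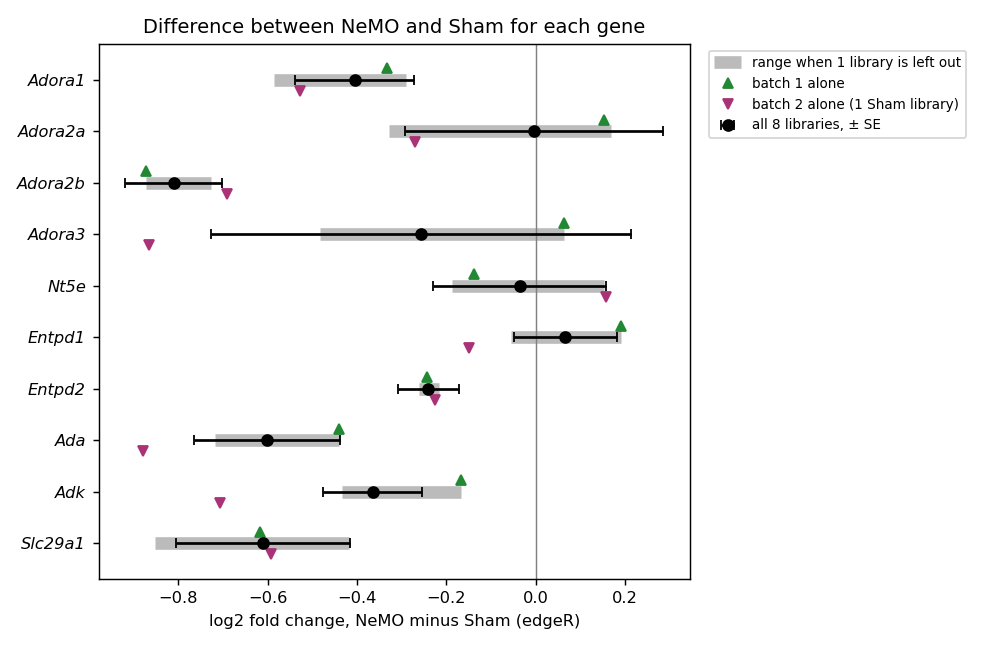
Log2 fold change (NeMO minus Sham, edgeR) of each gene with its SE, the range when 1 library is left out, and the value within each batch. Adora2b, at −0.81, is farthest from 0, and the values of Adora2a, Adora3, Nt5e and Entpd1 cross 0 when batches or libraries change.

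Levels were also compared across the members. In Sham, Slc29a1 was the most abundant per kilobase, with 72.6 ± 9.35 CPM per kilobase, above 39.9 ± 4.56 for Entpd1, 26.5 ± 0.953 for Entpd2, 19.9 ± 2.70 for Nt5e, 18.2 ± 2.35 for Adora2b and 16.1 ± 1.31 for Adk (SD, n = 4). Below them came Adora1 at 6.41 ± 1.01, Ada at 4.22 ± 0.607, Adora2a at 1.12 ± 0.277 and Adora3 at 0.302 ± 0.151 CPM per kilobase. The Sham ranges of Nt5e and Adora2b overlapped, as did those of Adora2b and Adk, and the other neighbours in the order did not. In NeMO, Adk (12.2 ± 2.03) stood above Adora2b (10.8 ± 1.27), with overlapping ranges. The ranges of Slc29a1 and Entpd1 overlapped in NeMO (47.4 ± 12.2 and 40.3 ± 7.94), as did those of Entpd2 and Nt5e. Slc29a1 lay above 94.5% of the genes tested with a known length, Adora2b above 69.6% and Adora3 above 6.51%. With the union of all exons as the length, Nt5e and Adora2b exchanged places.

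**Figure D4:**
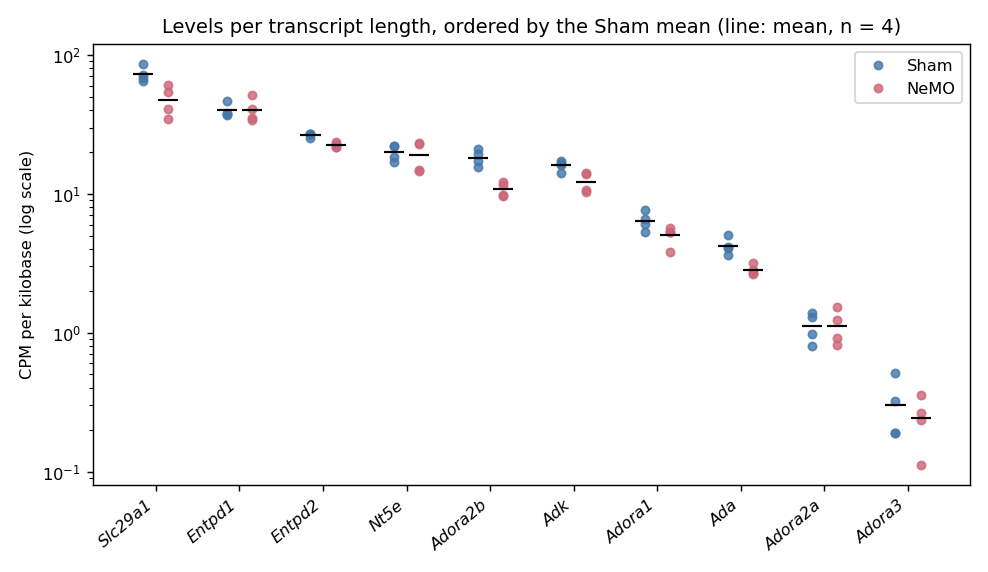
Level of each gene in each library in CPM per kilobase of the longest transcript (log axis), ordered by the Sham mean, with lines for the mean of 4 libraries. Slc29a1 is highest in both groups, and Adora3 is lowest.

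The batch mark gives a comparison that played no part in choosing the genes. Between batch 2 and batch 1, with the group as a term, none of the 10 members was called by edgeR's test (0 of 10 at an unadjusted p under 0.05) or by DESeq2, against 0.00611% of all genes in edgeR, 14.2% at an unadjusted p under 0.05 and 2.14% in DESeq2. The member nearest to a call was Entpd1, at −0.27 (SE 0.12, unadjusted p = 0.0516). Adora2b stood at 0.22 (SE 0.11) and Adora1 at 0.25 (SE 0.14).

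The genes whose profile over the 8 libraries was most like that of Adora2b were Svopl, Itgb1bp2, Slc9a2, Ttyh1 and Fzd3. Likeness was the root mean square difference of log2 CPM, each gene centred on its own mean, over 13279 genes with a mean of at least 1 CPM. It was 0.0983 for Svopl, 0.131 for Itgb1bp2, 0.136 for Slc9a2, 0.160 for Ttyh1 and 0.161 for Fzd3. Slc9a2, a sodium-proton exchanger gene, measured 16.6 CPM in NeMO and 25.9 in Sham on average. Among the members, Ada came closest to Adora2b (0.201, rank 21), followed by Slc29a1 (0.253, rank 123). Libraries of the same group share treatment, so these values describe the profiles and carry no test.

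The wider pathway was followed in 82 further genes, of which 76 passed the filter on low counts. None of the 76 was called by edgeR (unadjusted p under 0.05 in 9 that were higher and 9 that were lower), and 7 were called by DESeq2 (3 higher and 4 lower). Over all genes tested, 18.5% had an unadjusted p under 0.05. DESeq2 called 6.32% of the 15086 genes to which it gave an adjusted p, and Pde4c was not among those. The median log2 fold change was 0.02. Among the other ectonucleotidases and ectophosphatases, 0 of 12 were called by edgeR, with a median of 0.06. Enpp1, whose product makes AMP and pyrophosphate from ATP, measured 98.6 ± 1.62 CPM in NeMO and 75.2 ± 5.88 in Sham. The Enpp1 groups did not overlap (log2 fold change 0.37, SE 0.07, edgeR adjusted p = 0.0691, DESeq2 adjusted p = 3.47e-04). Enpp2, which encodes autotaxin, stood at −0.52 (SE 0.12, DESeq2 adjusted p = 0.00959). Alpl, the tissue-nonspecific alkaline phosphatase gene, stood at −0.48 (SE 0.13, DESeq2 adjusted p = 0.0297). Entpd6 stood at −0.15 (SE 0.08), with −0.23 in batch 1 and 0.01 in batch 2.

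Of 7 other nucleoside transporter and ATP release genes none was called by edgeR or DESeq2, and the median was 0.07. The concentrative transporter gene Slc28a3 had 1.14 ± 0.116 CPM in the NeMO group against 0.552 ± 0.193, without overlap (0.99, SE 0.37). Slc17a9, the vesicular nucleotide transporter gene, stood at 0.61 (SE 0.27), Slc28a2 at −0.82 (SE 0.40) and Slc29a4 at −0.85 (SE 0.50). A list around intracellular adenosine, AMP and inosine held 19 tested genes, among them the cell-surface peptidase gene Dpp4. None of the 19 was called by either tool, with a median of −0.07. The products of Nt5c3b, Nt5m and Nt5c3 are nucleotidases that are not specific for AMP. These genes stood at −0.29 (SE 0.12), −0.29 (SE 0.14) and −0.17 (SE 0.09). Nt5m was at −0.09 in batch 1 and −0.64 in batch 2.

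Downstream of the receptors, 0 of 17 G protein and adenylyl cyclase genes were called by edgeR, with a median of 0.003. Gnas, which encodes the stimulatory G protein alpha subunit used by the Adora2a and Adora2b receptors, had 724 ± 28.6 CPM in the NeMO group against 875 ± 104, without overlap (−0.30, SE 0.10, edgeR adjusted p = 0.161, DESeq2 adjusted p = 0.0288). Adcy1, an adenylyl cyclase gene, measured 7.57 ± 4.596 against 21.2 ± 4.05 CPM (−1.45, SE 0.48, edgeR adjusted p = 0.191). Gnaq stood at 0.25 (SE 0.08) and Adcy8 at 0.93 (SE 0.31). Of 21 genes of protein kinase A, cyclic AMP phosphodiesterases and CREB factors, 0 were called by edgeR, and the median was 0.06. Rapgef3, which encodes a guanine nucleotide exchange factor activated by cyclic AMP, measured 21.0 ± 1.63 against 14.96 ± 2.49 CPM (0.47, SE 0.14, DESeq2 adjusted p = 0.0360). The phosphodiesterase genes Pde4a, Pde4b and Pde4d stood at 0.30 (SE 0.10), 0.50 (SE 0.17) and 0.27 (SE 0.08). Within batch 1 these were 0.42, 0.81 and 0.34, and within batch 2 they were 0.08, −0.03 and 0.16.

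**Figure D5:**
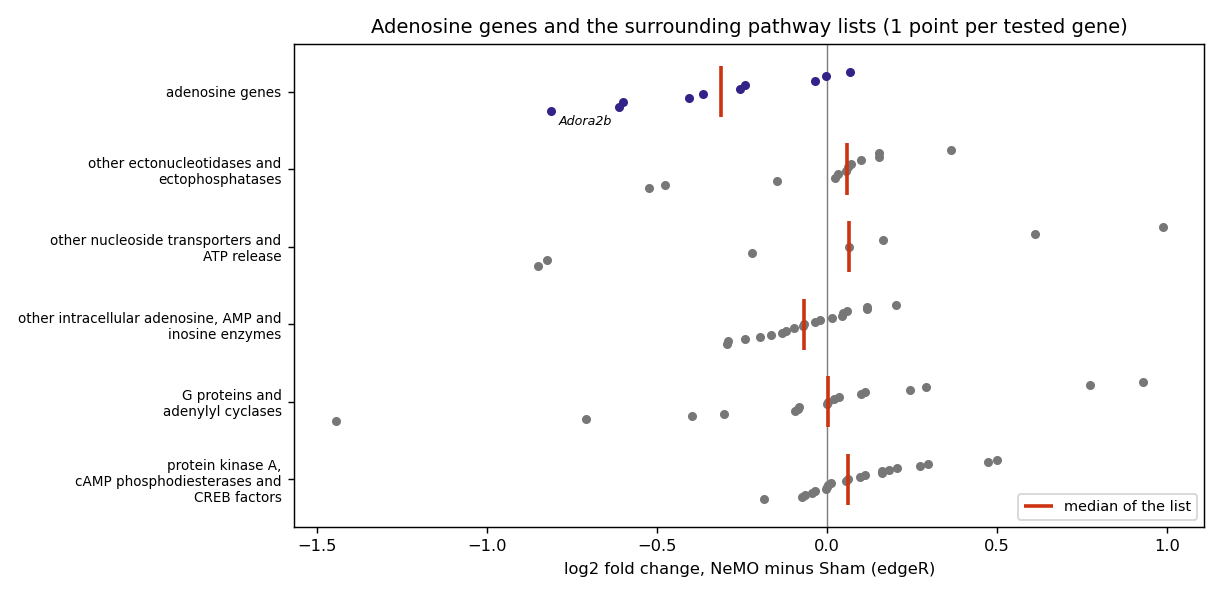
Log2 fold change (NeMO minus Sham, edgeR) of the 10 adenosine genes and of the tested genes of 5 pathway lists, 1 point per gene, with a line at each median. The median of the 10 adenosine genes, a group chosen on this contrast, is −0.31, and the medians of the 5 lists lie between −0.07 and 0.07.

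Cell type markers are given beside these values, whether or not they moved with the groups. Of 8 urothelial markers, 7 had a fitted value below 0 and 6 had lower means in NeMO. None was called by edgeR and 4 were lower by DESeq2. Their summed level was 4490 to 6632 CPM in NeMO and 5494 to 7212 in Sham, with overlap. All 6 fat cell markers were lower by mean and by fit (sums 336 to 1100 against 862 to 2501 CPM), and DESeq2 called Cfd and Fabp4. The 6 macrophage markers found in the files were also lower by both (185 to 418 against 344 to 521 CPM). All 7 nerve and Schwann cell markers had a fitted value below 0, while 6 had lower means and 1 (Mbp) a higher mean. Their sums were 293 to 476 against 444 to 520 CPM, and DESeq2 called Uchl1. Of 6 tested mast cell markers, 5 (Cpa3, Cma1, Mcpt4, Tpsb2 and Fcer1a) were higher without overlap and called by DESeq2, and the list's median log2 fold change was 1.93, while the summed level overlapped (43.6 to 81.4 against 34.1 to 49.7 CPM). Kit, the remaining tested marker of that list, was at 19.97 CPM in NeMO and 33.2 in Sham on average. Smooth muscle sums were 28592 to 52631 CPM in NeMO and 33484 to 45495 in Sham, and endothelial sums 310 to 524 and 354 to 426 CPM. Of 4 mesothelial markers 3 had lower means and 2 a fitted value below 0 (sums 255 to 389 against 331 to 594 CPM). DESeq2 called Upk3b. Of 8 lymphocyte markers 6 had lower means (sums 5.46 to 15.8 against 9.14 to 20.1 CPM). Of the 7 tested, 5 had a fitted value below 0, and none was called by either tool. The sums of the mesothelial, lymphocyte, fibroblast, pericyte and skeletal muscle markers overlapped between the groups. No marker was at 0 in all libraries. Mitochondrial genes took 1.62 to 2.65% of counts in NeMO and 2.64 to 3.20% in Sham. The part of these cell types and of the mitochondrial share in the values of Adora2b, Ada, Slc29a1, Adk and Entpd2 was not tested.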

How the data were processed

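Read counts per gene symbol were used as deposited, 1 file per library. Build mm10 and the tools STAR, Trimmomatic, featureCounts and DESeq2 are named in the submitters' processing notes. Versions, annotation, strand setting and the handling of multiply mapping reads are not stated there. The batch comes from the submitted file names. Counts were analysed with R 4.3.3 and edgeR 4.0.16 (filterByExpr, minimum count 10 and minimum total 15, leaving 16370 genes; TMM; robust quasi-likelihood F-test on batch and group; two-sided; Benjamini-Hochberg threshold 0.05). Log2 fold changes are NeMO minus Sham, and the SE is the change divided by the root of F. DESeq2 1.42.0 was run on the same genes. Every pair of libraries within a group differed by more than sampling noise.

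Lengths, positions and overlaps come from GENCODE M21 on GRCm38 (35656 symbols matched directly, 1792 through a RefSeq synonym; 98.9% of tested genes had a length), and promoters from RefSeq, GRCm38.p6 (9 of 10 members matched). The members, lists, alternatives and naming rules were chosen with earlier results of these data known. All members are named, and so are, in each pathway list, the 4 genes with the smallest p (1 of them is not reported here), and the 5 profiles nearest to Adora2b, leaving out gene models. The 3 promoters were chosen after the values were seen. Alternatives changed the test, scaling, filter, batch term, pairing, length and GC correction (splines with 4 degrees of freedom each) and libraries.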

Additional observations from a re-analysis of the deposited data

Results flagged for a closer look

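Entpd1 in Sham replicate 3 stood apart from its group. It measured 197 CPM (6581 counts), against 156 to 162 CPM in the other Sham libraries, a gap of 0.842 of the whole range of the group, above Dixon's limit for groups of 4. It was the only value set apart in this way among 20 groups of 4 libraries screened, and chance alone sets apart about 1 in 20. Without that library the Entpd1 log2 fold change was 0.12 (SE 0.12), against 0.07 with all libraries.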

How the results depend on the processing

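The direction of Adora2b was the same in all 18 alternatives (log2 fold change −0.87 to −0.69), but its call was lost with library totals in place of TMM (−0.80, edgeR adjusted p = 0.0537), without the batch term (−0.75), in batch 1 (−0.87) or batch 2 alone (−0.69, with 1 Sham library, so that its loss says nothing about stability) and after the length and GC correction (−0.70); the cause was not tested. Leaving out 1 library gave −0.87 to −0.73, with 3 of 8 fits past the threshold. Among these, the fit without Sham replicate 4 rested on batch 1 for the group difference. The number of members called was 3 with DESeq2 and 0 with library totals, without the batch term, in either batch alone and after the correction, and 0 to 3 without 1 library. The number of genes called was 953 with DESeq2, 172 without a filter, 7 without the batch term, 0 in batch 1, 7 in batch 2 and 0 to 652 without 1 library. Pathway genes called were 7 with DESeq2, 1 without a filter (Enpp1) and 0 to 7 without 1 library. Members higher in NeMO numbered 2 with DESeq2, with its size factors, with library totals, without a filter, without the batch term and after the correction, 3 in batch 1 alone, and 1 to 4 without 1 library. The median of the members was −0.21 in batch 1 and −0.56 in batch 2, and −0.40 to −0.21 without 1 library.

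Signs changed for members near 0. Adora2a was above 0 with DESeq2 (0.0018), its size factors (0.0017), library totals (0.015), no filter (0.0048), no batch term (0.0072), batch 1 alone (0.15) and the correction (0.10), and ran from −0.33 to 0.17 without 1 library. Adora3 was 0.065 in batch 1 alone and −0.48 to 0.064 without 1 library. Nt5e was 0.16 in batch 2 alone and −0.19 to 0.15 without 1 library. Entpd1 was −0.15 in batch 2 alone and −0.055 to 0.19 without 1 library. No member was called between batches in any of 13 alternatives. At least 8 of 10 members held their rank per kilobase in all 9 alternatives. Adora3 rested on 8 to 41 reads per library and Adora2a on 60 to 137.

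The replicate numbers of the titles were not shown to pair the libraries, since the correlation of deviations between libraries of the same number ran from −0.01 to 0.32 over the 4 numbers. With the replicate block Adora2b stood at −0.75 (edgeR adjusted p = 0.0915), 0 members and 0 genes were called.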
